A study of Mus musculus with 6 samples.

Results

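The mRNAs of 41 genes that act in meiotic recombination and in chromosome synapsis were followed from testes into mature sperm of the mouse. The genes were chosen by their known meiotic role, with earlier results of these data known. Their counts were read from the RefSeq mRNA entries of the transcript tables. Of the 41 genes, 32 had an entry, out of 14455 genes with a RefSeq mRNA entry in all. The testes libraries listed all 32, and 17 of them appeared in both libraries and 15 in 1 library. In sperm 11 were listed, none of them in every sperm library, and 21 had no count in any of the 4 sperm libraries. Of all 14455 genes, 7361 were listed in at least 1 of sperm replicates 2 to 4 and 1079 in all of them. Absence from at least 1 sperm library was thus common to most genes and does not set the members apart.

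RNA came from mice that the labels give as C57BL/6 aged 3 to 5 months, with no transgene or treatment named. The study's methods name the substrain C57BL/6J and give a younger age range, in weeks. Sperm were taken from the cauda epididymis and the vas deferens, somatic cells were lysed, and sperm of several mice were pooled for each of the 4 sperm samples. The 2 testes samples were testes of those mice, so they mix germ cells at every stage with somatic cells, and the spread between animals was not visible in either group. Sperm replicate 1 had been left out by the study after a correlation check. Means and the main test below therefore compare sperm replicates 2, 3 and 4 with both testes samples. Values of replicate 1 are given beside many of them.

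Male germ cells enter meiosis at the end of the spermatogonial stage, cut their chromosomes on purpose, and repair the cuts on the homologous chromosome. The homologs are meanwhile held together along their length by the synaptonemal complex, a protein zipper built on an axis of cohesin and HORMA-domain proteins, until crossovers are made. These genes are transcribed mainly in late spermatogonia and spermatocytes. The cells then divide, become spermatids, condense their chromatin with protamines and shed most of their cytoplasm. The comparison therefore asks how much mRNA of an earlier stage remained in the finished sperm. In RNA from whole tissue, fewer cells of a type and less RNA per cell cannot be told apart.

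Depth limited every statement about a member at 0. RefSeq mRNA held between 9.14% and 12.1% of the counts of a library, which left 33511 to 100027 mRNA counts per sperm library and 314273 to 322625 per testes library. Levels are given as CPM, the counts of a gene per 1000000 RefSeq mRNA counts of its library. Taking 3 counts as the smallest number that can be told from 0, the lowest level that could be seen was 30.0, 89.5 and 55.2 CPM in sperm replicates 2, 3 and 4, 70.8 in sperm replicate 1, and 9.30 and 9.55 in the testes. Summed over sperm replicates 2 to 4 the same 3 counts were 15.97 CPM. These limits cover counting error only. The tissue labels were checked against marker genes. The summed level of 30 spermatid genes in sperm was 118% ± 6.65 (SD, n = 3) of testes, although 18 of the 25 tested had a log2 fold change below 0. That of 15 spermatogonial genes was 20.9% ± 7.69 (SD, n = 3), a value carried by Gfra1, and 2 of the 4 tested, Sohlh1 and Id4, had a log2 fold change above 0, of 2.34 and 2.80, neither passing the test. Of 10 Sertoli cell markers 8 were listed in testes and 2 in sperm, and their sum reached 40.0 CPM at most in sperm against 84.0 and 96.1 in testes. Of 6 leukocyte markers 3 were listed in testes and 1 in sperm, with a sum of at most 20.0 CPM against 22.3 and 40.3, and Ptprc and Cd3e had no entry. Of 7 Leydig cell markers 6 were listed in testes and 2 in sperm, and their sum was at 170.0, 1194 and 110.4 CPM in sperm replicates 2, 3 and 4, nearly all of it Star, a cholesterol carrier, against 541 and 579.6 in testes. Of 10 epididymal markers 6 were listed in testes and 4 in sperm, with a sum of 113.6, 423 and 184 CPM in the same sperm libraries and of 128 and 149.9 in testes, and Cdh1, Lcn5 and Crisp1 had no entry. Sperm replicate 1 held none of these 4 marker lists. What part such cells had in the counts of the meiotic genes was not tested.

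**Figure D1:**
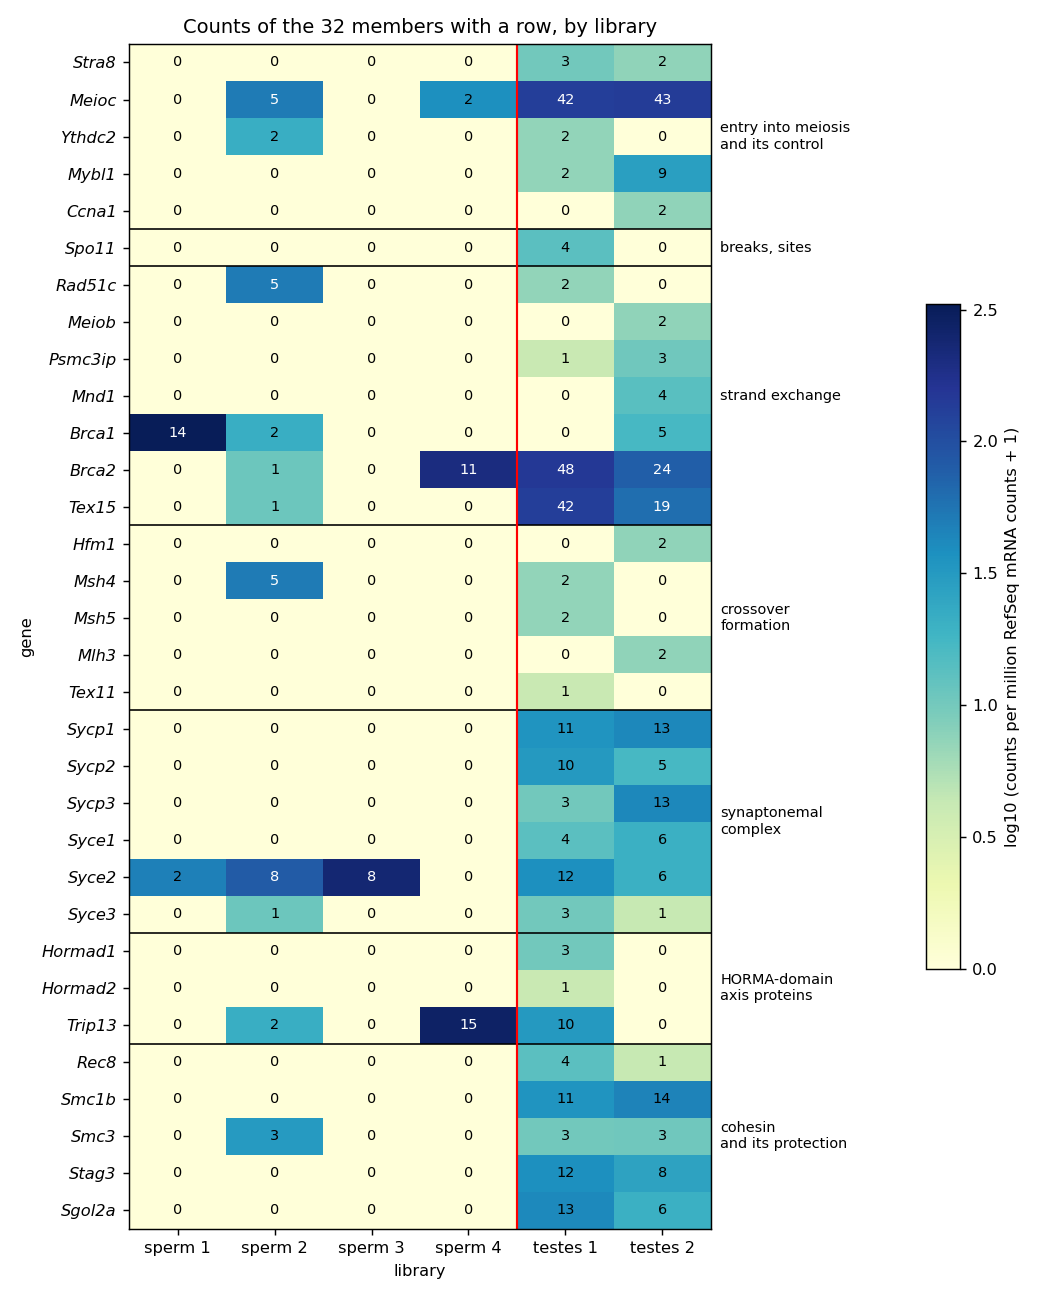
Counts of the 32 genes with an entry (a line per gene, grouped by role) in the 4 sperm and 2 testes libraries; the number is the count and the colour the log10 of CPM plus 1. Testes replicates 1 and 2 hold 26 and 23 of the genes, sperm replicate 3 holds only Syce2, and sperm replicate 2, the deepest sperm library, holds all 11 genes listed in sperm.

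The synaptonemal complex held both members at 0 in every sperm library and the member seen in most of them. Sycp1, which forms the transverse filaments, had 11 and 13 counts in the testes and 0 in all 4 sperm libraries. Sycp2, a protein of the lateral elements, had 10 and 5 counts in testes and 0 in sperm, and Sycp3, its partner there, had 3 and 13 in testes and 0 in sperm. Syce1, of the central element, had 4 and 6 in testes and 0 in sperm. Every library of testes thus held all 4 of these mRNAs and no library of sperm held any of them. Of all genes with 10 or more testes counts, 25.0% likewise had no count in any sperm library. Pooled over sperm replicates 2 to 4, the level of Sycp1 was at least 2.36-fold lower than in testes, that of Sycp3 at least 1.59-fold and that of Sycp2 at least 1.47-fold. These bounds, here and below, set 3 counts in place of 0 in sperm and take the testes mean as exact. They cover neither the counting error of the testes mean nor the spread between libraries. For Sycp3 and Sycp2, 1 testes library lay below 15.97 CPM, so the bound rests on the other. For Syce1 no bound could be set, because 2.96 counts were expected in these sperm libraries at its testes level.

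Syce2, another central element protein, was seen in 3 of the 4 sperm libraries. The 4 sperm libraries, in order, had 2, 8, 8 and 0 counts of it and the testes had 12 and 6, and 5.29 counts were expected in sperm replicates 2 to 4 against the 16 found. As CPM this was 80.0, 239 and 0 in sperm replicates 2, 3 and 4 and 37.2 and 19.1 in testes, so the groups overlapped. The log2 fold change of 1.81 (SE 1.55) did not pass the test (edgeR's quasi-likelihood test, Benjamini-Hochberg adjusted p = 0.396), and its sign turned to -0.30 on the log2(FPKM + 0.1) scale. Syce2 lies at chr8:84872111-84887446 (GRCm38.p6) and overlaps the end of the neighbouring gene Gcdh, an enzyme of lysine breakdown, so reads of that gene may be among its counts. Its counts came from 2 transcripts in unequal shares. Syce3, of the same element, had 1 count in sperm replicate 2 and 3 and 1 in testes, too few to compare, and Tex12 had no entry in the 6 tables and was taken as 0. Summed over the complex, sperm replicates 2, 3 and 4 held 90.0, 239 and 0 CPM and replicate 1 held 47.2, against 133 and 140 in testes, and Syce2 supplied nearly all of the sperm value.

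Cohesin mRNAs were scarce in sperm. Cohesin rings hold sister chromatids together, and meiosis uses its own subunits. Smc1b, the meiotic SMC subunit, had 11 and 14 counts in testes and 0 in every sperm library, at least 2.46-fold lower. Stag3, the meiotic STAG subunit, had 12 and 8 in testes and 0 in sperm, at least 1.96-fold lower. Sgol2a, a shugoshin that shields centromeric cohesin, had 13 and 6 in testes and 0 in sperm, at least 1.86-fold lower. Rec8, the meiotic kleisin, had 4 and 1 counts in testes and 0 in sperm, below what this depth could separate. Smc3, which all cells use, was the only one of the group seen in sperm, with 3 counts in sperm replicate 2 and 3 in each testes library. Rad21l had no entry. The summed level of the group was 30.0, 0 and 0 CPM in sperm replicates 2, 3 and 4 and 133 and 102 in testes. Sperm replicate 1 held none. The mean of sperm replicates 2 to 4 was 8.505% of the testes mean and rested on sperm replicate 2 alone, without which it was 0, and the pooled counts of these libraries were 3 where 22.1 were expected.

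Upstream sequences are shown for 4 members at 0 in sperm and for the 2 with the highest sperm counts. Both sets were chosen after their values and motifs were seen. The sequences come from RefSeq on GRCm38.p6, from 250 bases before to 50 bases after an annotated start, 5′ to 3′ on the strand of the gene. The window nearest the 5′ end of the gene was taken. For some genes, Stag3 among them, it lies inside the gene span, for Stag3 chr5:138272514-138312397. Capitals mark 2 kinds of letters found by a search of both strands: the MYB core (TAACTG, or the same letters with C first, with GG last or with both, shown as its reverse complement where it lies on the other strand), bound by Mybl1, itself a member, and the E-box CACGTG, bound by factors such as Max. The first 4 belong to genes at 0 in all sperm libraries, Sycp1 at chr3:102936051-102936350 on the minus strand, Sycp3 at chr10:88459337-88459636 on the plus strand, Stag3 at chr5:138280259-138280558 on the plus strand and Smc1b at chr15:85131908-85132207 on the minus strand.
Sycp1: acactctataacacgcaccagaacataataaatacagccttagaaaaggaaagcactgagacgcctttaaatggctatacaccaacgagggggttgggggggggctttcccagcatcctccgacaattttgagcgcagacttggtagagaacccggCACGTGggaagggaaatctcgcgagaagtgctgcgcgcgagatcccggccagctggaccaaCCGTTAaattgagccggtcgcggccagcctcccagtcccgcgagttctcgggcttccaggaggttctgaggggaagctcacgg
Sycp3: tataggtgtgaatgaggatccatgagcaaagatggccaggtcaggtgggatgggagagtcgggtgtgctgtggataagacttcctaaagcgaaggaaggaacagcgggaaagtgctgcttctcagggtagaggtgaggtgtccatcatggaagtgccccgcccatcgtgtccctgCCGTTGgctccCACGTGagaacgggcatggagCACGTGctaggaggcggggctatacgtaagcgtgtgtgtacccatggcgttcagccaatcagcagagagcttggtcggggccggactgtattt
Stag3: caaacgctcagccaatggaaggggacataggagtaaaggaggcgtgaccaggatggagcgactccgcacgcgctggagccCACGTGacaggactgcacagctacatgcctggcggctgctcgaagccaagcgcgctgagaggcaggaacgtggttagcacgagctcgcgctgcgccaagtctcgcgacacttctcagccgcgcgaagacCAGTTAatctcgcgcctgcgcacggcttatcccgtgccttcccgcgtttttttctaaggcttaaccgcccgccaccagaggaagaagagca
Smc1b: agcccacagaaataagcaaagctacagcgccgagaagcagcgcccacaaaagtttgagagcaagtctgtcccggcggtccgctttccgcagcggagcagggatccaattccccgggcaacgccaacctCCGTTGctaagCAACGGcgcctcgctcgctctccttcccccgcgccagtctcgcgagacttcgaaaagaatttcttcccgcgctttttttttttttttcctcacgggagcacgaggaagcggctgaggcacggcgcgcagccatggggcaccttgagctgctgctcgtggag
The other 2 belong to the genes with the highest sperm counts, Syce2 at chr8:84871861-84872160 on the plus strand and Trip13 at chr13:73937718-73938017 on the minus strand, and neither held these letters.
Syce2: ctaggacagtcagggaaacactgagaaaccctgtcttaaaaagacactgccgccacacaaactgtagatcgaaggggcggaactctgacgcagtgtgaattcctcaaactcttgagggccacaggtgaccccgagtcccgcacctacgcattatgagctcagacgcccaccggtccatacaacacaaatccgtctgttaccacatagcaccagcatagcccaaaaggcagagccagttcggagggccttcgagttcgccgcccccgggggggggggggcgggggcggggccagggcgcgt
Trip13: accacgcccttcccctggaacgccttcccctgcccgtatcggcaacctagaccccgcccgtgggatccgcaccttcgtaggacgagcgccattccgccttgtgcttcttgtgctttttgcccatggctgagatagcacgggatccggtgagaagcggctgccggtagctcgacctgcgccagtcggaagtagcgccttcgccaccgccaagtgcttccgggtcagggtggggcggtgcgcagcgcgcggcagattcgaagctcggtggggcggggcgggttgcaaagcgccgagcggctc

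Windows of this length were on hand for 34 of the 41 genes. The MYB core stood in 11 of them, or 32.4%, against 28.3% of 32851 mouse promoter windows. The E-box stood in 6 of them, or 17.6%, against 7.15% of all windows. The 6 were Sycp1, Sycp3, Tex12, Hormad1, Stag3 and Rnf212, of which Tex12 and Rnf212 had no entry and the other 4 had no count in sperm. Of all 32 members with an entry, 21 had no count in any sperm library. Sycp2 and Syce1, at 0 in sperm as well, held neither motif, whereas Meioc, Msh4 and Syce3, which had sperm counts, held the MYB core. A match of letters is a description of the window and not evidence of a bound site.

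Among the HORMA-domain axis proteins, Trip13 stood apart. Trip13, at chr13:73912450-73937795, is the ATPase that removes Hormad1 and Hormad2 from the axis once chromosomes have synapsed. The 4 sperm libraries had 0, 2, 0 and 15 counts of it and the testes had 10 and 0, so that 1 sperm library held most of its sperm counts and 1 testes library all of its testes counts. Where 2.91 counts were expected in sperm replicates 2 to 4, 17 were found. With a log2 fold change of 2.62 (SE 1.61) it did not pass the test (edgeR, adjusted p = 0.218). Without sperm replicate 4 the value was -0.13, and without sperm replicate 3 it was 3.10 and passed the test (edgeR, adjusted p = 0.037), as did 9.01% of all genes in that direction. Hormad1 had 3 and 0 counts in testes, Hormad2 1 and 0, and neither had any in sperm.

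The genes that start meiosis included the member with most testes counts. Meioc, which keeps spermatocytes in prophase, had 42 and 43 counts in testes, and the 4 sperm libraries had 0, 5, 0 and 2. Its testes level was 133.5 ± 4.70 CPM (SD, n = 2) and its sperm level 28.9 ± 25.9 (SD, n = 3), with no overlap between the groups. The log2 fold change of -2.01 (SE 1.47) did not pass the test (edgeR, adjusted p = 0.309). Ythdc2, an RNA helicase that works with Meioc, had 2 counts in sperm replicate 2 and 2 in testes replicate 1. Mybl1, a transcription factor of pachytene spermatocytes, had 2 and 8.57 counts in testes and 0 in sperm, at least 1.05-fold lower, a bound that rests on testes replicate 2. Stra8, the switch into meiosis, had 3 and 2 counts in testes and Ccna1, a cyclin of the meiotic divisions, 0 and 2, both with none in sperm. Sperm replicates 2, 3 and 4 held 70.0, 0 and 36.8 CPM of this group, replicate 1 held none, and the testes held 152 and 177, a mean of 21.7% of the testes level.

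Break formation could barely be seen in any library. Spo11, the enzyme that cuts the DNA, had 4 counts in testes replicate 1 and 0 elsewhere. Prdm9, which marks the sites of the cuts, and Mei1 and Mei4, which are needed for them, had no entry in the 6 tables and were taken as 0. At this depth no statement about these 4 genes in sperm was possible.

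The members with the next highest testes counts act in strand exchange. Tex15, which is needed for repair of meiotic breaks, had 42 and 19 counts in testes, and the 4 sperm libraries had 0, 1, 0 and 0. With 17.9 counts expected in sperm replicates 2 to 4 and 1 found, it showed the largest shortfall relative to expectation among the members with any sperm count. Its log2 fold change of -4.09 (SE 1.86) did not pass the test (edgeR, adjusted p = 0.093), whereas that of DESeq2, -4.96, did (adjusted p = 0.030). Brca2, which loads Dmc1 onto DNA, had 48 and 24 counts in testes and 0, 1, 0 and 11 in sperm. Sperm replicate 4 thus held it at 202 CPM, above both testes libraries at 149 and 76.4, while sperm replicates 1 and 3 held none. A log2 fold change of -0.65 with an SE of 1.39 did not pass (edgeR, adjusted p = 0.759). The counts of Brca2 were given to 1 of its 2 transcripts in some libraries and to the other in the rest, so only the sum over the gene was used.

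The other genes of strand exchange had few counts. Brca1, a repair factor of all dividing cells, had 14 counts in sperm replicate 1, 2 in sperm replicate 2, 0 in sperm replicates 3 and 4, and 0 and 5 in testes. Rad51c, a factor of homologous repair, had 5 counts in sperm replicate 2 and 2 in testes replicate 1. Psmc3ip and Mnd1, the partners that stimulate Dmc1, had 1 and 3 and 0 and 4 counts in testes, Meiob, a single-strand binding protein, had 0 and 2, and none of them had any in sperm. Dmc1, the meiotic recombinase itself, had no entry. The summed level of the group was 90.0, 0 and 202 CPM in sperm replicates 2, 3 and 4, and 288 and 181 in testes. Sperm replicate 1 stood at 330.3 CPM, all of it Brca1, above both testes libraries.

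Crossover genes lay at the floor in both tissues. Msh4, which stabilises crossover intermediates, had 5 counts in sperm replicate 2 and 2 in testes replicate 1. Its partner Msh5 had 2 and 0 counts in testes, Mlh3, a nuclease that resolves crossovers, had 0 and 2, Hfm1, a helicase, had 0 and 2, and Tex11, the only X-linked member, had 1 and 0. None of these 4 had a count in sperm, and Rnf212 had no entry. The groups overlapped on the summed level, at 49.99, 0 and 0 CPM in sperm replicates 2, 3 and 4, 0 in replicate 1, and 15.5 and 12.7 in testes. Majin and Terb1, which anchor chromosome ends to the nuclear envelope, had no entry under these symbols. Under their older symbols 1700123I01Rik and Ccdc79 the tables held 1 and 0 and 2 and 8 testes counts, and none in sperm.

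**Figure D2:**
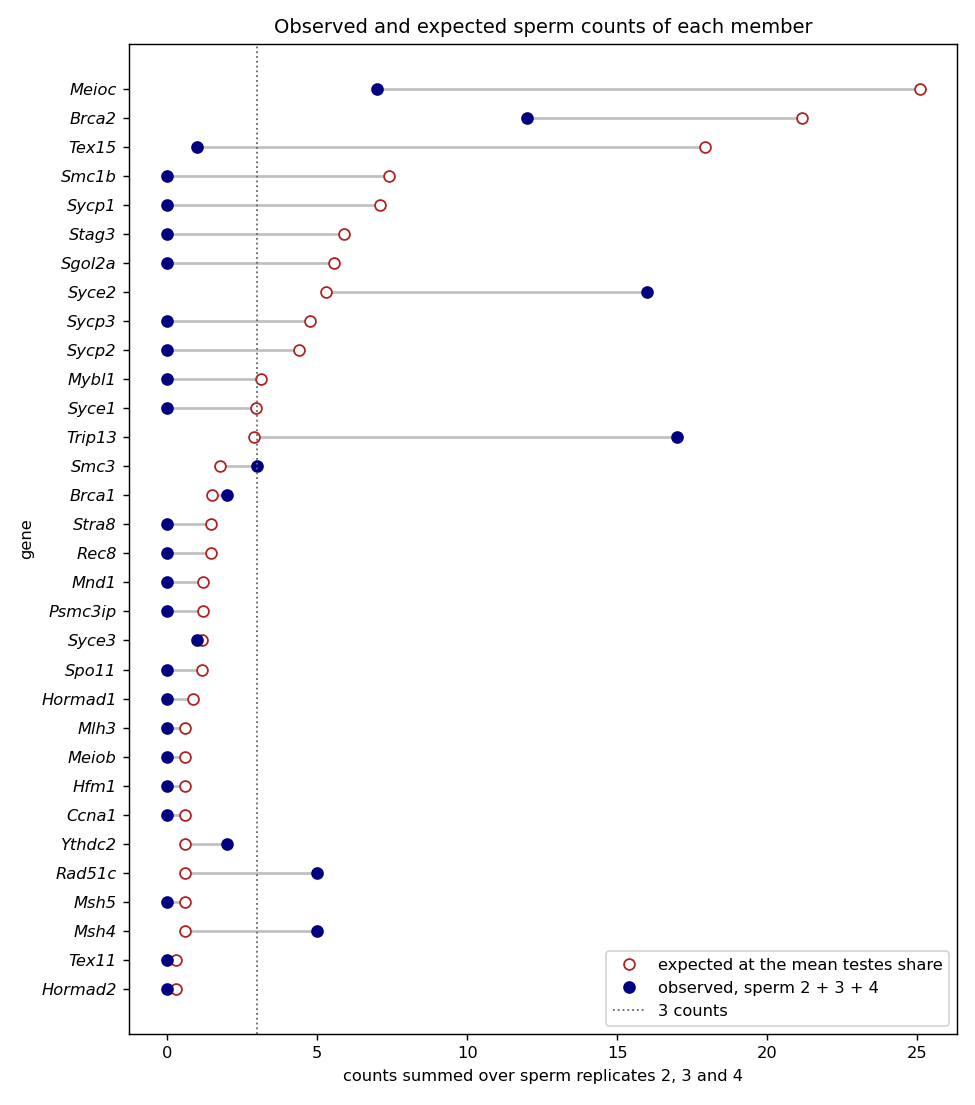
Counts of each gene summed over sperm replicates 2 to 4 (filled) and the counts expected there if sperm held the mean testes share of the gene (open), on a linear count axis; the dotted line marks 3 counts. Meioc, Brca2 and Tex15 fall short of 25.1, 21.1 and 17.9 expected counts, Smc1b, Sycp1, Stag3, Sgol2a, Sycp3, Sycp2, Mybl1 and Syce1 lie at 0 with 2.96 or more expected, and Syce2 and Trip13 lie above expectation.

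Read together against their testes share, 71 counts of the 41 genes were found in sperm replicates 2 to 4 and 130.6 were expected. Of the 32 genes, 7 lay above their expected count: Syce2, Trip13, Rad51c, Msh4, Smc3, Ythdc2 and Brca1. The 11 genes expected at 3 counts or more included 7 with none, and the 21 expected below 3 included 14 with none, a range in which 0 carries little information. No share of all genes under the same rules stands beside these numbers, so they describe the members only. The summed level was 349.9, 239 and 515 CPM in sperm replicates 2, 3 and 4, 377 in sperm replicate 1, and 778 and 613 in testes. All sperm libraries lay below both testes libraries, at a mean of 52.9% ± 20.0 of the testes mean (SD, n = 3). This value rested on few genes. In testes the 3 genes with most counts held 49.1% of the members' counts, the 3 with most counts in sperm held 63.4% there, and in sperm replicate 3 every count came from Syce2. Without Trip13 and Syce2, a choice made after their values were seen, sperm held 25.0% ± 21.7 (SD, n = 3) of the testes level. Sperm replicates 2, 3 and 4 stood at 38.3%, 0% and 36.7%, and replicate 1 at 50.7%.

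No member was called lower or higher. In the test across all RefSeq mRNA genes, 6826 genes with 10 or more counts over the 5 libraries were fitted, and 3.63% of them were called lower in sperm and 3.53% higher (edgeR's quasi-likelihood test, adjusted p below 0.05 and more than a 2-fold change). Of the 41 members 13 reached that count, and 0 were called in either direction. With DESeq2 1 was called lower (Tex15), against 12.1% of all genes, and with limma 4 on log2(FPKM + 1) and 8 on log2(FPKM + 0.1), against 20.8% and 24.6%. None was called higher by these tools, against 2.62%, 3.81% and 3.41% of all genes. At an unadjusted p below 0.05, 9 of the 13 were lower and 0 higher in edgeR, against 30.1% of all genes lower. Because 8 of the 13 entered through their testes counts alone, this number describes them and is no support. The same holds for the limma calls, which were all among these 8 except Tex15. The fitted log2 fold changes of the 8, from -5.72 for Smc1b (SE 2.30, edgeR, adjusted p = 0.075) to -4.44 for Syce1 (SE 2.18, adjusted p = 0.111), depend on the small count added to 0. The median over the 13 was -4.58 as fitted and -0.67 with these genes set to their bound, beside -1.19 over all genes tested. With sperm replicate 1 added, another library without these 8 genes, 14 members were tested. Called lower were 6 (Sycp1, Sycp2, Sycp3, Smc1b, Stag3 and Sgol2a), against 16.3% of all genes, and 0 were called higher, against 3.8%. These 6 also entered through their testes counts alone, so their number is no support.

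How far sparse sampling goes was read off all genes. Of the 4705 genes within the range of testes counts of these members (10 to 85 in all), 29.9% had no count in any sperm library. Of the 13 members 8 had none, or 61.5%. Only the range was matched, so these shares may not be at equal counts. The median testes count was 19 for the 13 members and 29 for all genes with 10 or more, including those above 85. Among all genes listed in testes 49.2% were listed in sperm replicates 2 to 4, and among the 32 members 11. Sperm counts were bunched: after all libraries were brought to 33510 counts by calculation, genes seen with exactly 1 count made up 40.5%, 8.54% and 18.8% of the genes seen in sperm replicates 2, 3 and 4, 9.44% in replicate 1, and 44.3% and 45.7% in testes. The median count of a listed gene was 3, 9, 5 and 8 in the same sperm libraries and 5 and 4 in the testes. What part this had in the zeros of the meiotic genes was not tested.

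**Figure D3:**
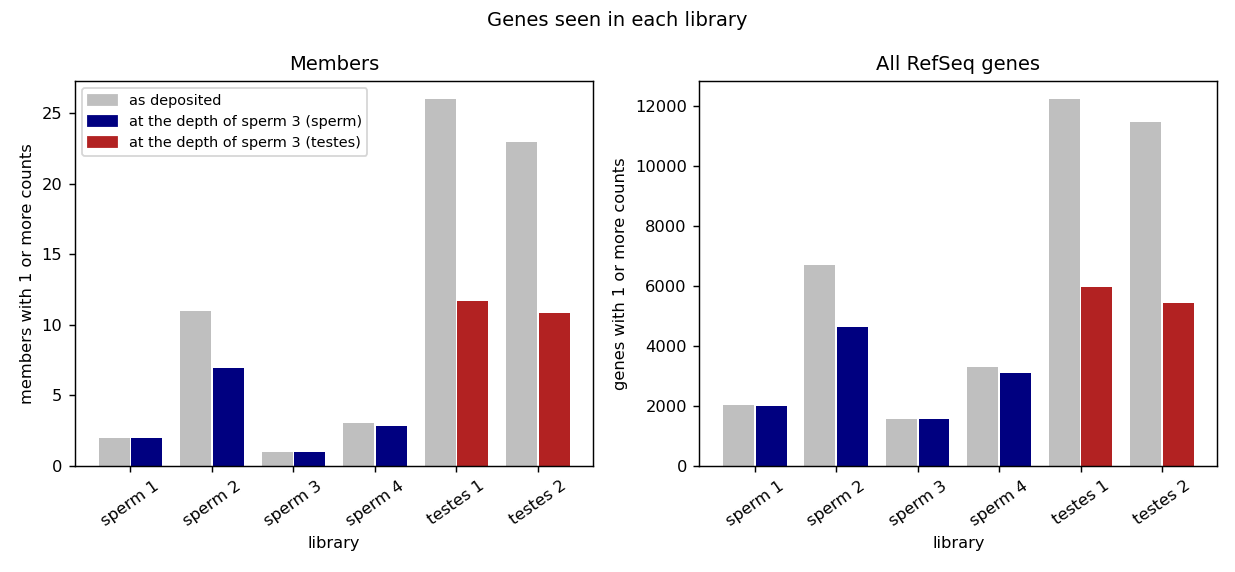
Number of the 41 meiotic genes (left) and of all RefSeq mRNA genes (right) with 1 or more counts in each library, as deposited (grey) and calculated for 33510 counts (coloured). At equal depth between 1.0 and 6.96 of the meiotic genes were seen per library of sperm and 11.7 and 10.9 in the testes, and sperm replicate 3 had the fewest genes on both sides.

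At that equal depth 6.96, 1.0 and 2.85 members were seen in sperm replicates 2, 3 and 4 and 11.7 and 10.9 in testes. The means were 3.60 ± 3.05 (SD, n = 3) and 11.3 ± 0.585 (SD, n = 2), a ratio of 0.319. For all RefSeq genes the ratio was 0.543, for the spermatid genes 0.512 and for 91 further meiotic genes 0.447. As deposited the members seen were 11, 1, 3, 26 and 23 in the same order, with 2 in sperm replicate 1. Sperm replicate 2 lay closer to the testes than the other sperm libraries did for members and for all genes alike. Without it the ratio of the members was 0.171. With 3 or more counts needed to count as seen, the ratio of the members over sperm replicates 2 to 4 was 0.497. At that setting it was 0.827 for all RefSeq genes, 0.579 for the spermatid genes and 0.589 for the further meiotic genes.

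Per length the members lay near the middle of all testes mRNAs. On the FPKM scale their mean testes level ranged from 0.055 to 3.43 with a median of 0.465, and the median of all genes listed in testes was 0.505, with 17 of the 32 members below it. Meioc (3.43), Syce2 (3.06) and Sycp3 (2.81) were the highest, and the 2 testes libraries of Sycp3 differed from 0.97 to 4.65. Members listed in sperm had a median length of 4577 bases (n = 11) and members not listed 2055 bases (n = 21). Longer mRNAs yield more fragments at the same level. What part length had in being listed was not tested.

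A wider list of 91 genes of meiotic prophase and division, outside the 41, was read the same way. Of these 77 had an entry and 33 were tested, and edgeR called 1 lower and 1 higher. At an unadjusted p below 0.05 there were 14 in both directions together, against 39.6% of all genes tested. Of the 33 log2 fold changes 25 were below 0, against 66.0% of all genes, and their median was -1.43, against -1.19. Their summed level in sperm was 69.1% ± 2.13 (SD, n = 3) of the testes mean. Sperm replicate 1 stood at 88.9%, and over all 4 sperm libraries the SD was 10.04 percentage points for this list and 16.4 for the 41 members. By function, the mean summed level in sperm was 6.02% of testes for other cohesin genes, 23.1% for meiotic entry and division, 26.3% for crossovers, 31.8% for telomere attachment, 58.2% for breaks, 98.0% for checkpoints and 242% for repair and strand exchange, most of the last from 1 gene. These differences between functions were not tested. The cohesin value rested on 4 counts, all in sperm replicate 2. Sperm replicate 1 stood at 684 CPM for entry and division, above the testes at 505 and 544.

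The gene called higher was 4930432K21Rik, now Brme1, whose protein works with Brca2 and Hsf2bp in meiotic repair. Its level was 1076, 1995 and 949.8 CPM in sperm replicates 2, 3 and 4, 554 in sperm replicate 1, and 88.8 and 64.4 in testes. Every sperm library lay above both testes libraries, with a log2 fold change of 4.11, an SE of 0.79 and an adjusted p of 1.3e-05 in edgeR. Its adjusted p rose to 0.058 with TMM scaling, to 0.134 without a filter on low counts and to 0.065 for its transcripts. The gene called lower was Cntd1, a cyclin-like protein needed for crossovers, at 429.9, 239 and 331 CPM in sperm replicates 2, 3 and 4 and 1134 and 1833 in testes. It was called at a log2 fold change of -2.13 with an SE of 0.66 (edgeR, adjusted p = 0.023), but sperm replicate 1 stood at 1156 CPM, among the testes values, and with it the adjusted p was 0.079. Cntd1 overlaps Becn1 on chromosome 11, so reads of that gene may be among its counts.

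Of the further meiotic genes with counts in at least 2 sperm libraries, Rad9a, a clamp of the checkpoint, was at 469.9, 358 and 552 CPM in sperm replicates 2, 3 and 4, 661 in replicate 1, and 179.8 and 321 in testes. Its sperm values all lay above its testes values, but the log2 fold change of 0.88 (SE 0.88) did not pass the test (edgeR, adjusted p = 0.473). Xrcc2, a factor of homologous repair, was at 70.8, 209 and 90.7 CPM in these libraries, 0 in replicate 1, and 239 and 181 in testes, and Eme1, a subunit of a resolving nuclease, at 60.0, 298 and 92.0 CPM, 307 in replicate 1, and 291 and 433 in testes. Both overlapped between the tissues, and neither passed the test. Mdc1, a checkpoint scaffold, was at 214, 0 and 161 CPM, 118 in replicate 1, and 90.4 and 54.5 in testes.

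**Figure D4:**
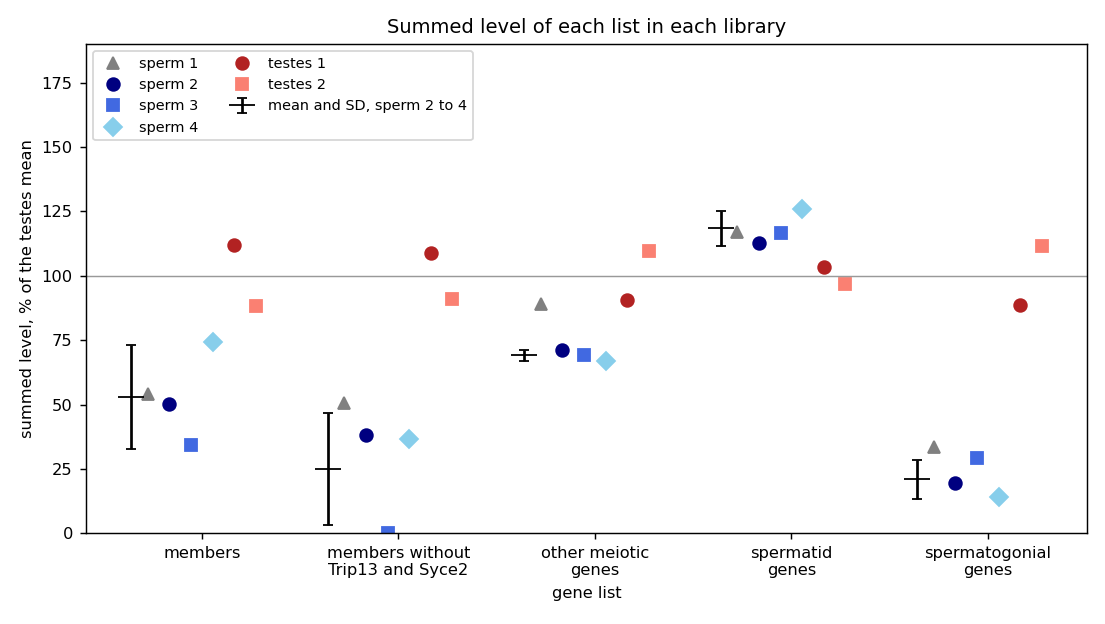
Summed level of each gene list in each library as a percent of the testes mean (linear axis, grey line at 100%), with mean and SD of sperm replicates 2 to 4. The meiotic genes lie between 34.3% and 74.1% in these sperm libraries and between 0% and 38.3% without Trip13 and Syce2, the other meiotic genes near 69.1%, the spermatid genes above 100% and the spermatogonial genes at 14.01% to 29.2%.

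Spermatid genes, transcribed after meiosis, gave the comparison at the other end. Their summed sperm level was 118% of testes, but single genes went both ways. Of 25 tested, edgeR called Tssk6 higher and Prm1, Tnp1 and Crisp2 lower, against 3.53% and 3.63% of all genes. Their median log2 fold change was -1.82, against -1.19 over all genes. Prm2, a protamine, was at 1479.6, 1462 and 2392 CPM in sperm replicates 2, 3 and 4, 1062 in sperm replicate 1, and 1441 and 700.0 in testes. Replicate 1 lay between the testes values, and the log2 fold change of 0.73 (SE 0.53) did not pass the test (edgeR, adjusted p = 0.309). Crisp2 had no count in any sperm library although it stood at 124 and 286 CPM in testes.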

How the data were processed

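Strand-specific, rRNA-depleted RNA-seq libraries of 4 sperm pools and 2 testes samples were used, grouped by their titles. The authors trimmed the reads, and their methods name SOAPaligner/SOAP2 for mapping, whereas the submitters' processing notes name HISAT and mm10. The counting program, and whether it used strand, are not given in the sources used here. The deposited tables give an estimated count of fragments per transcript, not scaled for depth, its FPKM, per length and mapped fragments, as computed by the authors, and its length. Transcripts absent from a table were taken as 0.

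For the levels, estimated counts of RefSeq mRNA (NM_) entries were summed per gene and divided by the RefSeq mRNA total of the library. For the test they were rounded to whole numbers per transcript and then summed per gene, with that total as library size. Of 16425 RefSeq transcripts, 16312 (99.3%) matched GRCm38.p6 by accession, from which coordinates and promoter windows were taken. The test was edgeR's quasi-likelihood test of sperm replicates 2 to 4 against testes replicates 1 and 2 on genes with 10 or more counts in all, Benjamini-Hochberg adjusted over all of them and called at an adjusted p below 0.05 and over 2-fold. It was tested on simulated data with 200 changed genes. These were drawn only from genes at a mean level above that of every member. The simulation therefore does not show how well the test works for the members. TMM, DESeq2, limma on log2(FPKM + 1), other filters, all 4 sperm samples, a replicate block and leaving out samples were tried. Replicates of a group differed by more than counting noise (chi-square per degree of freedom 4.93 to 12.5), so none were merged for the test. The bounds and the expected and found counts do pool sperm replicates 2 to 4 and do not cover this spread. The labels name no batch. P-values measure the spread between these samples only, and fragments copied by PCR are not independent. Tests ran in edgeR 4.0.16, DESeq2 1.42.0 and limma 3.58.1 under R 4.3.3, and the rest in pandas 2.3.3, numpy 2.4.6, scipy 1.17.1 and matplotlib 3.10.9 under Python 3.11.15.

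The members and lists were chosen with earlier results of these data known. Every member is given. Values per library were due for members called, with 3 or more counts in at least 2 of sperm replicates 2 to 4, or among the 5 highest in testes. From the other lists those called higher, those with such sperm counts (at most 6) and the 3 highest in testes could be named. Other genes, among them Trip13, Tex11, Crisp2 and those of the E-box list, were named after their values were seen.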

Additional observations from a re-analysis of the deposited data

Results flagged for a closer look

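Within the 4 sperm libraries, 1 library stood far from the other 3 for 12 of 18 items checked, by a gap test (Dixon's). The rate of about 1 in 20 groups that chance gives holds for continuous values. It does not hold here: where the other 3 libraries are at 0, as for 8 of the 12, a single count passes. The high library is given with its level in CPM. Sperm replicate 2 was the high library for Rad51c (49.99), Msh4 (49.99), Smc3 (30.0), Ythdc2 (20.0), Tex15 (10.0), Syce3 (10.0), the summed crossover genes (49.99) and the summed cohesin genes (30.0), each with 0 in the other sperm libraries. Sperm replicate 4 was the high library for Trip13 (276) and Brca2 (202), and for the summed HORMA-domain axis genes (276), of which Trip13 was all. Sperm replicate 1 was the high library for Brca1 (330.3). That library was left out of the main test and of the means over sperm replicates 2 to 4. Its 14 counts of Brca1 compare with 0 and 5 in the testes libraries.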

How the results depend on the processing

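Depth limits these results: with 33511 to 100027 mRNA counts per sperm library, 21 of 32 genes were expected at under 3 counts in sperm replicates 2 to 4. Over all alternatives 166 values of named genes kept their direction and side of the threshold, 20 newly passed it, 12 no longer passed it and 2 turned direction (Syce2 to -0.30 with limma on log2(FPKM + 0.1), Trip13, which ran from -0.13 to 6.65 when leaving out a sample, without sperm replicate 4). The cause was not tested. Cntd1 was lost under 9 of 15 alternatives and 4930432K21Rik under 3.

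Members called lower numbered 0, and 1 with DESeq2, 6 with all 4 sperm samples, and 4 and 8 with limma at a pseudocount of 1 and 0.1; members called higher numbered 0 to 1 when leaving out a sample, the 1 being Trip13 without sperm replicate 3. Their median log2 fold change of -4.58 moved to -3.88 with DESeq2, -2.37 with no filter on low counts (32 members), -1.32 with filterByExpr (2 members), -0.90 and -2.88 with limma, and -5.13 to -2.78 when leaving out a sample. TMM moved the median of all genes from -1.19 to -1.83. Other meiotic genes called lower (1) numbered 0 with TMM, no filter or transcripts, 6 with DESeq2, all 4 sperm samples or limma at a pseudocount of 1, 9 at 0.1, 3 with filterByExpr, and 0 to 5 when leaving out a sample; those called higher (1) numbered 0 with TMM, no filter or transcripts.

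All genes called lower (248) numbered 75 with TMM, 824 with DESeq2, 4 with no filter, 1135 with all 4 sperm samples, 1417 and 1682 with limma, 76 for transcripts, and 49 to 706 when leaving out a sample (706 without sperm replicate 3). All genes called higher (241) numbered 17 with TMM, 15 with no filter, 94 for transcripts, and 68 to 606 when leaving out a sample. The ratio of the summed level, 0.529, was 0.770 on FPKM and 0.250 without Trip13 and Syce2, an alternative chosen after seeing the data. The ratio of members seen at equal depth, 0.319, ran from 0.171 to 0.497 over its 8 alternatives, each within the SD of 0.270 of the main value.

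The replicate block (sperm and testes replicates 1 and 2 carry the pairs) called 0 members, 0 other meiotic genes lower and 1 higher, and 103 genes lower and 164 higher in all. Deviations of same-numbered samples correlated at -0.018 and -0.035. With 2 testes samples and few counts per gene, this cannot tell whether same-numbered samples came from the same mice.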
